A study of Mus musculus with 24 samples.

Results

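The genes described here were Mbp, Mog, Mag, Mobp, Cnp, Mal, Opalin, Sox10 and Cldn11, 9 genes chosen by name because they encode proteins of myelin or of the oligodendrocyte. They were 9 of the 55414 genes in the count table, and all 9 were among the 14464 genes tested after a filter on low counts. Oligodendrocytes are the glial cells that wrap axons of the central nervous system in myelin, a stack of lipid-rich membrane held together by a small set of proteins. They arise from dividing precursor cells, which carry Sox10 early and make the structural myelin proteins as they mature. In the cortex myelin is sparse in the upper layers and dense in the deep layers and in the white matter beneath them.

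RNA was measured in 24 libraries, 6 per group, of visual cortex from C57BL/6J male mice, 8 weeks old at the experiment and kept on a reversed light cycle. No statement that each library came from a separate animal was found in the sources used here. Libraries are called mice below, and p-values measure the spread between these samples. The dark mice received vehicle (phosphate-buffered saline, PBS) and stayed in the dark, and the light mice received vehicle and spent 2.5 h in light. The psilocybin-dark and psilocybin-light mice received 5 mg/kg psilocybin, a serotonergic psychedelic, and were then kept in the dark or placed in light. These group names follow the headings of the study's own count table. The deposited sample labels name light where these headings name dark, and dark where they name light, in all 24 libraries, with no conflict over the drug. Under the labels the same 4 sets of 6 mice would exchange the words light and dark. Mice are named below by group and library number, from dark mouse 1 to psilocybin-light mouse 24. The comparisons ask whether light, the drug or both went with another level of myelin gene RNA within hours.

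Libraries held 13552516 to 17906994 counts, of which the 9 genes together took between 0.0891% and 0.583%. Arc, an early gene of synaptic plasticity that light raises in visual cortex, stood at 617 to 1454 normalized counts in the dark group and at 2159 or more in every other mouse. A normalized count is a count scaled to a library of the mean effective size. In 4 libraries the summed normalized count of 8 genes of cerebellar neurons reached 27833 (dark mouse 1), 59364 (dark mouse 6), 16668 (light mouse 18) and 26658 (psilocybin-dark mouse 12), against 385 to 2529 in the other 20. Dark mice 1 and 6 also had the lowest summed levels of 10 genes of glutamatergic neurons, at 32127 and 38512, against at least 68000.3 in the other 22 mice. Every dark mouse held more RNA of hippocampal neuron genes, 1055 to 5499, than any mouse of another group, 379.5 to 741. Results are therefore given with all 24 libraries and without the 4 rich in cerebellar RNA, which does not remove the hippocampal difference. In bulk tissue fewer oligodendrocytes and less RNA per oligodendrocyte cannot be told apart.

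The 9 genes lie on 9 chromosomes, so none of them shares a neighbourhood with another. On GRCm39 Mog lies at chr17:37321521-37334350, Mag at chr7:30598464-30614474, Mobp at chr9:119973770-120011273 and Cnp at chr11:100465730-100482936. Mal lies at chr2:127475142-127498615, Opalin at chr19:41045254-41065553, Sox10 at chr15:79039108-79049469 and Cldn11 at chr3:31203900-31218495.

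Sox10 belongs to the Sox family of transcription factors, which bind short motifs such as ACAAAG or ACAATG, and it is known to act on myelin genes. The 250 bases before the start of each gene's canonical transcript were searched for both motifs on both strands. At least 1 match was found in 5 of the 9 windows (Mbp 3 matches, Mog 1, Mobp 7, Cnp 1, Opalin 1), beside 23.7% of the windows of 21770 protein-coding genes. No window of Mag, Mal, Sox10 or Cldn11 held a match, which says only that these letters are not in this stretch. The 3 windows printed here show the range, from 7 matches in Mobp (chr9:119978493-119978742, plus strand) through 1 in Opalin (chr19:41065553-41065802, minus strand) to none in Cldn11 (chr3:31203650-31203899, plus strand). Each is printed 5′ to 3′ along the gene and ends at the base before the start, with matches to ACAAAG or to its reverse complement CTTTGT in capitals.
Mobp: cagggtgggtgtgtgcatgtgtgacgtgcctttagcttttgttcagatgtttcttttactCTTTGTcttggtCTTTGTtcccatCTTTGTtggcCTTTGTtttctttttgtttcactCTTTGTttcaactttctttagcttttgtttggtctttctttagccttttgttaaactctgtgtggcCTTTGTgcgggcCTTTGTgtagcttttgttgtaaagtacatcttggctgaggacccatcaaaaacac
Opalin: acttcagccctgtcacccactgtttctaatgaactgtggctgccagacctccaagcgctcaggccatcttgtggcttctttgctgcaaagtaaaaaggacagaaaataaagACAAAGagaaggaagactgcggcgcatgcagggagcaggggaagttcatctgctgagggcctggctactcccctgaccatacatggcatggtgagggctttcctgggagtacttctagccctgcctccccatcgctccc
Cldn11: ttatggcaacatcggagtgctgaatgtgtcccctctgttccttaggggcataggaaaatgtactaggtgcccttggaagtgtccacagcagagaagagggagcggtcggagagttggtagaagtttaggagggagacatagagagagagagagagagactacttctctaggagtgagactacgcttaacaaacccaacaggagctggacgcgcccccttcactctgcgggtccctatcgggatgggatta
All 7 matches of Mobp are to ACAAAG on the strand opposite the gene, and 5 of them begin between 190 and 133 bases before the start. Opalin has its match 139 bases before the start. A match describes the letters and is not evidence of binding.

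Levels were compared per kilobase of exon, a rough scale for setting different genes side by side. The length counts all annotated exons of a gene, 9745 bases for Mbp, 8974 for Mobp and 6305 for Opalin. A gene whose expressed transcripts use fewer of these bases is placed too low, so the order is approximate. Mbp was the highest of the 9 in every group. Its mean in light mice was 2481 ± 453 normalized counts per kilobase (SD, n = 6). Mbp encodes myelin basic protein, which binds the cytoplasmic faces of compact myelin together. Mal, Cnp, Cldn11 and Mobp followed in light mice at 1134 ± 281, 966 ± 126, 927 ± 198 and 857 ± 224 per kilobase, each within the spread of its neighbour. Mag (385 ± 78.5), Mog (281 ± 57.8) and Sox10 (158 ± 13.1) stood lower. Opalin was the lowest, at 26.2 ± 5.71 per kilobase. The same 4 genes made up the end of the order, and Mbp its head, in all 4 groups, while Mal and Cnp exchanged places in the dark group (742 ± 526 and 913 ± 591) and Cldn11 and Mobp in the psilocybin-light group, each by less than 1 SD.

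Over all 24 libraries no group differed from another in these genes past the test, apart from Opalin in 1 comparison, and the dark mice differed widely among themselves. Within the dark group the highest mouse exceeded the lowest by 2.54-fold for Sox10 and by 4.34-fold to 8.92-fold for the other 8 genes. Within the other 3 groups this range was 1.22-fold to 2.47-fold for all 9. Dark mouse 1 was the highest of the dark mice for every gene and the highest of all 24 mice for 7 of the 9, the exceptions being Mal and Opalin. Dark mice 2, 3 and 4 lay below every mouse of the other 3 groups for 8 of the 9 genes, Sox10 being the exception, and dark mice 5 and 6 lay among the other groups.

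**Figure D1:**
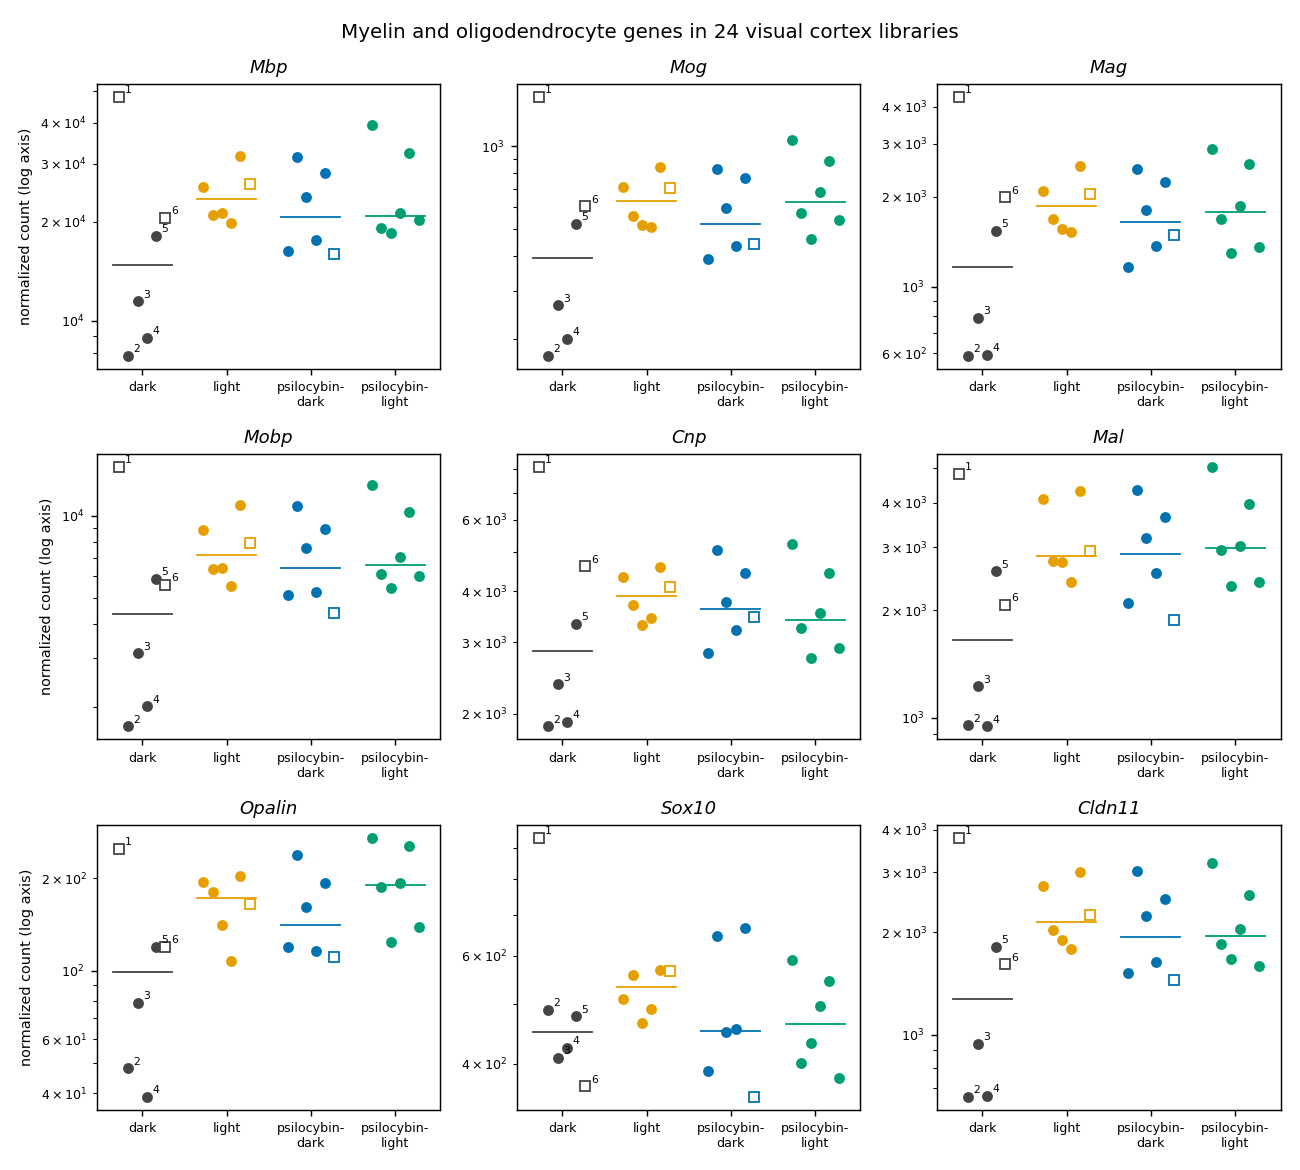
Normalized counts of the 9 genes in each of 24 mice (vertical log axes, 1 panel per gene), with horizontal lines at group medians, numbers beside the dark mice and open squares for the 4 libraries rich in cerebellar markers. Dark mouse 1 stands at or near the top and dark mice 2, 3 and 4 at the bottom of 8 panels, while in the Sox10 panel dark mice 2 to 5 sit among the other mice.

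Genes of compact myelin showed this spread plainly. Mbp, on chromosome 18 from 82493207 to 82603763, stood at 47973 normalized counts in dark mouse 1, at 7826, 11446 and 8858 in dark mice 2, 3 and 4, and at 18137 and 20590.2 in dark mice 5 and 6. It ranged from 19756 to 31555 (median 23398) in light mice, from 15921 to 31434.5 (median 20675) in psilocybin-dark mice and from 18474 to 39354 (median 20753) in psilocybin-light mice. The dark values thus surrounded those of each other group on both sides. The log2 fold change against dark was 0.34 (SE 0.33) in light, 0.21 (SE 0.33) in psilocybin-dark and 0.39 (SE 0.33) in psilocybin-light mice, with adjusted p of 0.47, 0.687 and 0.372 by edgeR's quasi-likelihood test.

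Mobp encodes a small basic protein of the same compartment. It had the widest dark range, with 15092 in dark mouse 1, 1692, 3137 and 2002 in dark mice 2, 3 and 4, and 5877 and 5591 in dark mice 5 and 6. It lay between 5539 and 10949 (median 7198) in light mice, 4388 and 10843 (median 6425) in psilocybin-dark mice and 5449.8 and 13028.5 (median 6581) in psilocybin-light mice. Again only dark mouse 1 exceeded all other mice and only dark mice 2, 3 and 4 fell below them all. Its log2 fold changes against dark were 0.47 (SE 0.39), 0.34 (SE 0.39) and 0.52 (SE 0.39) in the same order, with edgeR adjusted p of 0.312 or more.

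Mal, a lipid raft protein of the myelin membrane, ran from 945 to 4816 normalized counts in dark mice (median 1646), with dark mouse 1 again the highest and dark mice 2, 3 and 4 at 952, 1223 and 945. Light mice held 2392 to 4297 (median 2843), psilocybin-dark mice 1874 to 4324 (median 2863) and psilocybin-light mice 2331 to 5027 (median 2984). Here psilocybin-light mouse 19 and not a dark mouse was the highest of all. The log2 fold changes were 0.61 (SE 0.33), 0.49 (SE 0.33) and 0.65 (SE 0.33), with edgeR adjusted p of 0.162, 0.293 and 0.123. Cldn11 encodes the claudin of the tight junctions that seal myelin lamellae. It ranged from 658 to 3791 in dark mice (median 1276) and from 1445 to 3191 over the other 18 mice, whose group medians were 2139, 1933 and 1947. Its log2 fold changes of 0.53, 0.38 and 0.44 (SE 0.33 each) did not pass (edgeR adjusted p of 0.228, 0.432 and 0.3).

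Mog and Mag sit outside compact myelin. Mog encodes a glycoprotein of the outermost lamella, and Mag an adhesion protein of the innermost membrane that faces the axon. Mog was at 1511 normalized counts in dark mouse 1, 174, 265 and 201 in dark mice 2, 3 and 4, and 523 and 607 in dark mice 5 and 6. Over the other groups it lay between 391 and 1051, with medians of 634 in light, 521 in psilocybin-dark and 627 in psilocybin-light mice. Mag fell between 589 and 4316 in dark mice (median 1164) and between 1161 and 2883 in the other 18 mice. Dark mouse 1 therefore exceeded the highest mouse of any other group in both genes. No log2 fold change of either gene against dark exceeded 0.35 (SE 0.38), and the lowest edgeR adjusted p was 0.502.

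Cnp encodes an enzyme of the cytoplasmic channels of myelin. Dark mice held 8092, 1864, 2364, 1909, 3335 and 4609 normalized counts of it, from mouse 1 to mouse 6, while light mice held 3312.5 to 4585 (median 3899), psilocybin-dark mice 2825 to 5048 (median 3623) and psilocybin-light mice 2740.5 to 5225 (median 3400.3). Dark mouse 6 lay above 16 of the 18 mice of the other groups in Cnp, but above 1 of 18 in Mal. Mean levels of Cnp hardly differed, with log2 fold changes of 0.082, 0.038 and -0.0045 (SE 0.27 each). The ratio of Mal to Cnp, a pair picked after its values were seen and given without a test, was 0.449 to 0.770 in dark mice, 0.695 to 0.946 in light, 0.540 to 0.857 in psilocybin-dark and 0.825 to 0.962 in psilocybin-light mice.

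Opalin, a membrane glycoprotein of mature oligodendrocytes, was the gene that passed in 1 comparison. It stood at 249 normalized counts in dark mouse 1, 48.2, 78.7 and 38.9 in dark mice 2, 3 and 4, and 119.9 and 119.7 in dark mice 5 and 6. Light mice held 108 to 203 (median 172), psilocybin-dark mice 111 to 237 (median 141) and psilocybin-light mice 124 to 271 (median 189.9). All 6 psilocybin-light mice lay above 5 of the 6 dark mice, and dark mouse 1 lay among them. Opalin rose in psilocybin-light against dark mice by 0.83 on the log2 scale (SE 0.33, edgeR adjusted p = 0.0495), with an exact permutation p of 0.039 for the mean log2 level. That call was close to the threshold and was lost in 19 of 24 fits that each left out 1 library (edgeR adjusted p from 0.00152, without dark mouse 1, to 0.107). The log2 fold changes of Opalin in light and psilocybin-dark mice, 0.59 (SE 0.33) and 0.51 (SE 0.33), did not pass (edgeR adjusted p of 0.175 and 0.274).

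Sox10, which keeps cells in the oligodendrocyte lineage and is carried by precursors as well as by mature cells, had another pattern. Dark mice held 935, 489.8, 409, 424, 478 and 367 normalized counts from mouse 1 to mouse 6, light mice 467 to 568 (median 534), psilocybin-dark mice 353 to 667 (median 453) and psilocybin-light mice 379.5 to 589.8 (median 465). Apart from dark mouse 1 the dark mice lay inside the range of the others, and dark mice 2, 3 and 4 were not low. Its log2 fold changes against dark were 0.03, -0.07 and -0.13 (SE 0.19 each), none past the test. As a share of Mbp, Sox10 stood at 1.78% to 6.26% in dark mice, 1.80% to 2.67% in light, 1.90% to 2.58% in psilocybin-dark and 1.499% to 2.34% in psilocybin-light mice, so the share was highest in some of the dark mice.

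Over all 24 libraries edgeR called 0 of the 9 genes in light against dark, where 31.9% of all genes tested were called, and 0 of 9 in psilocybin-dark against dark, where 24.7% were called. In psilocybin-light against dark it called 1 of 9, beside 38.4% of all genes. At an unadjusted p under 0.05 the counts were 0, 0 and 1, beside 42%, 36.3% and 47.3% of all genes, and DESeq2 gave 0, 0 and 1 at an adjusted p under 0.05, beside 33.5%, 26.5% and 40% of all genes. The median log2 fold change of the 9 genes was 0.34, 0.21 and 0.39, against -0.01, -0.02 and -0.02 over all genes tested. No gene of the 9 had groups without overlap in any of these comparisons, beside 5.59%, 3.13% and 8.28% of all genes without overlap and higher. Of 54 exact permutation tests, 9 genes in 6 pairs of groups, only the Opalin test named above had p under 0.05, and every p was 0.675 or more after adjustment over the 54.

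Between the psilocybin-light, light and psilocybin-dark mice no difference passed the test in any of the 9 genes. None was called in psilocybin-light against light (0.608% of all genes called), in psilocybin-light against psilocybin-dark (6.38%) or in psilocybin-dark against light (0.456%), and none had an unadjusted p under 0.05 in edgeR (9.69%, 19.9% and 14.4% of all genes). DESeq2 called none of the 9 either, beside 1.32%, 8.28% and 2.8% of all genes. For Mbp the 95% interval of the log2 difference was -0.63 to 0.74 in psilocybin-light against light and -0.81 to 0.56 in psilocybin-dark against light, so differences within these bounds were not excluded. The narrowest of the 9 intervals in psilocybin-light against light was that of Sox10, from -0.55 to 0.24. The interaction asks whether the change from dark to psilocybin-light exceeds or falls short of the light change and the psilocybin-dark change added together. It was called in 0 of the 9 genes beside 8.75% of all genes, with 0 at an unadjusted p under 0.05 (24.8% of all genes) and 0 by DESeq2 (11.5%).

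The outcome against dark turned on dark mouse 1. Without this library edgeR called 7 of the 9 genes higher in light (all but Cnp and Sox10), 5 in psilocybin-dark (Mbp, Mobp, Mal, Opalin and Cldn11) and 7 in psilocybin-light mice (again all but Cnp and Sox10), beside 14.9%, 10.9% and 17.7% of all genes called higher. Leaving out any other single library gave 0 or 1, and leaving out dark mice 1 and 6 together gave 8 in each comparison, beside 20.3%, 17% and 21.8% of all genes. Dark mouse 1 was both a library rich in cerebellar markers and the highest in most of these genes. Dark mouse 6, with the most cerebellar marker RNA, lay above 16 of the 18 mice of the other groups in Cnp and above 1 to 11 of them in the other 8 genes. In the summed level of the 9 genes light mouse 18 (46729) lay inside its group and psilocybin-dark mouse 12 (29497) was the lowest of its own. The part of the cerebellar RNA in the level of these genes was not tested.

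Without the 4 libraries, 8 of the 9 genes were higher against dark in each of the 3 comparisons, and Sox10 was not. The shares of all genes called higher were then 21.1%, 18.3% and 24% of the 14135 tested. Mbp rose by 1.04 (SE 0.26), 1.01 (SE 0.26) and 1.13 (SE 0.26) on the log2 scale in light, psilocybin-dark and psilocybin-light mice, with edgeR adjusted p of 0.00323, 0.00457 and 0.00114. Its 4 remaining dark mice ran from 7826 to 18137 and lay below all 5 light and all 6 psilocybin-light mice, while psilocybin-dark mice 7 and 10, at 16329 and 17644, fell among them. Opalin rose by 1.21 (SE 0.31), 1.20 (SE 0.31) and 1.45 (SE 0.30), and in psilocybin-light mice its lowest value of 124 was above the highest remaining dark value of 119.9. Cnp had the smallest of the 8, by 0.71 (SE 0.20), 0.70 (SE 0.20) and 0.65 (SE 0.20), with edgeR adjusted p of 0.0097 or less.

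The other 5 rose by similar amounts in the 20 libraries. Mobp rose by 1.27, 1.25 and 1.34 (SE 0.33 to 0.34), Mal by 1.20, 1.15 and 1.21 (SE 0.29 to 0.30) and Cldn11 by 1.17, 1.09 and 1.08 (SE 0.28 each). Mog rose by 1.11, 1.05 and 1.26 (SE 0.30 to 0.31) and Mag by 1.10, 1.04 and 1.15 (SE 0.29 to 0.30). Sox10 stood at 0.21 (SE 0.14), 0.21 (SE 0.14) and 0.08 (SE 0.14), and its 95% interval in psilocybin-light mice, from -0.21 to 0.37, lies below the values of the other 8. The median of the 9 was 1.11, 1.05 and 1.15, against a median over all genes of 0.0020, -0.0090 and 0.0041.

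These calls rest on 4 dark mice, of which dark mouse 5 resembled the other groups. All 4 still held more summed RNA of hippocampal neuron genes, 1901 to 5499 normalized counts, than any mouse of another group, at 741 or less. The part of this RNA in the calls was not tested. For the 8 genes the exact permutation p for the mean log2 level was between 0.00952 and 0.0476, where 0.00952 is the smallest that 6 mice against 4 can give, 0.0159 the smallest for 5 against 4, and after adjustment over 54 tests none was below 0.107. Groups without overlap were found for 1 gene in light (Mbp) and 2 in psilocybin-light mice (Mbp and Opalin), beside 15.2% of all genes without overlap and higher in each, and for 0 in psilocybin-dark mice, beside 12.7%. The interaction was negative in all 9 genes and called lower for 3 of them, Cldn11 at -1.18 (SE 0.37), Mal at -1.13 (SE 0.39) and Cnp at -0.77 (SE 0.27) on the log2 scale, beside 13% of all genes called lower. Mobp at -1.17 (SE 0.45) and Mbp at -0.93 (SE 0.35) missed the threshold narrowly (edgeR adjusted p of 0.0574 and 0.053), and 8 of the 9, all but Sox10, had an unadjusted p under 0.05, so the 3 called genes are not shown to differ from the others. A negative interaction means that the change from dark to psilocybin-light was smaller than the other 2 changes added together. Where the 3 other groups do not differ, a rise over dark in each of them gives a negative interaction of about that size. The interaction thus rests on the same 4 dark mice and is not a result separate from those rises. Between the 3 groups other than dark, 0 of the 9 were called by edgeR in psilocybin-light against light (2.34% of all genes), psilocybin-light against psilocybin-dark (17.2%) and psilocybin-dark against light (6.03%). None of them had an unadjusted p under 0.05 there (14.9%, 30.8% and 23% of all genes).

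**Figure D2:**
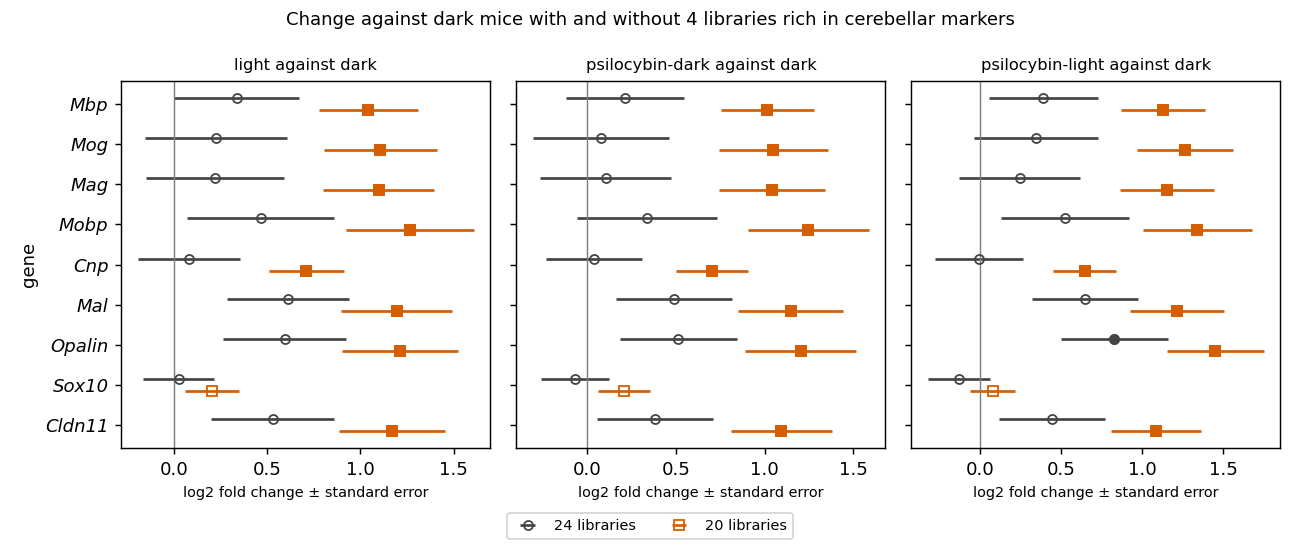
Log2 fold change against dark mice with its standard error (horizontal axis) for each of the 9 genes, from 24 libraries (circles) and from 20 libraries without the 4 rich in cerebellar markers (squares), with filled symbols where edgeR's adjusted p was under 0.05. The only filled circle is Opalin in psilocybin-light mice, and all squares but those of Sox10 are filled.

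Of the 9 genes 8 rose and fell together over the libraries as a whole, and Sox10 followed them less closely. Over the 24 libraries the Pearson correlation of log2 levels was 0.86 to 0.99 (median 0.96) for the 28 pairs without Sox10 and 0.55 to 0.68 for the 8 pairs with it. Over the 20 libraries it was 0.93 to 0.99 and 0.53 to 0.71. These points share libraries and tissue pieces, and the correlation describes that without a test. Psilocybin-light mice 19 and 23, light mouse 17 and psilocybin-dark mice 8 and 11 were the highest of their groups in Mbp, Mobp, Mog and Mag alike, so mice given the same treatment differed in all of these genes at once.

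Among the genes reported here, those whose level most resembled the mean standardized log2 level of the 9 were Ermn, Galnt6, Fa2h, Bcas1 and Myrf, with Pearson correlations of 0.984, 0.983, 0.980, 0.975 and 0.973 over 24 libraries. Ermn encodes a cytoskeletal protein of oligodendrocytes, and Fa2h the enzyme that adds a hydroxyl group to the fatty acids of myelin lipids. Ermn ranged from 248 to 2085 normalized counts and Fa2h from 152 to 1060.1 in dark mice, against 466 to 1109 and 276 to 589.8 in the others. Within the dark group all 5 were highest in dark mouse 1 and lowest in dark mice 2, 3 and 4.

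**Figure D3:**
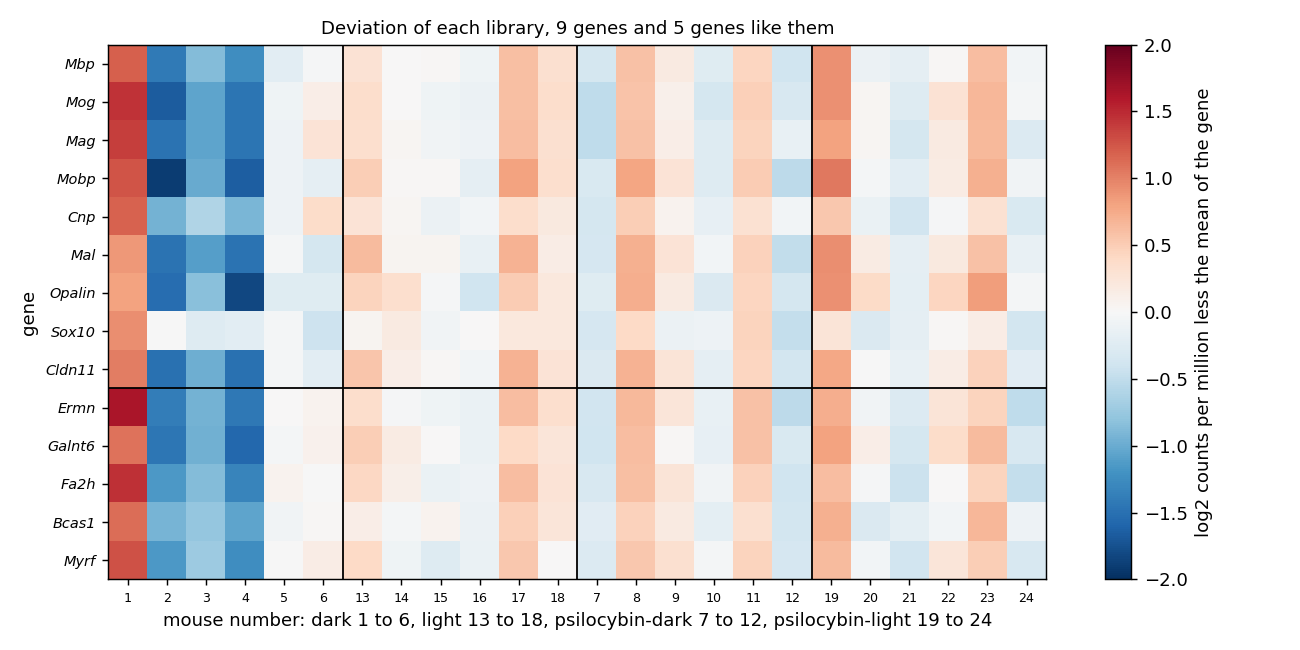
Deviation of each library's log2 level from the mean of the gene (colour, from -2 in blue to 2 in red) for the 9 genes and, under the black line, the 5 genes named as like them, with mice in columns by group. Columns have nearly 1 colour throughout, red in dark mouse 1 and blue in dark mice 2, 3 and 4, and the Sox10 row is the palest.

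Another 87 genes of the oligodendrocyte lineage passed the filter, in 8 lists that leave out the 9 genes and share some of their own. Of all genes tested, 15.4%, 11.9% and 17.4% were called higher in light, psilocybin-dark and psilocybin-light against dark over 24 libraries, and 21.1%, 18.3% and 24% over 20 libraries. In the list of compact myelin, edgeR called 0 of 7 genes in each of these comparisons over 24 libraries, with 0 at an unadjusted p under 0.05 and 0 by DESeq2. Over 20 libraries 7, 6 and 6 of 7 were called higher. In the list of cytoplasm and cytoskeleton 3 of 19 genes were called higher in each comparison over 24 libraries, among them Septin8 at 0.35, 0.39 and 0.38 (SE 0.07 each), a count near that of all genes, and 13, 13 and 16 of 19 were higher over 20 libraries. Septin8 and its relatives form filaments and are also made by neurons. Markers of mature oligodendrocytes gave 1, 1 and 0 of 15 higher over 24 libraries and 9, 10 and 10 of 15 over 20. In these 3 lists the share called higher lay near or below that of all genes over 24 libraries and above it over 20.

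Among regulators, lipid enzymes and membrane genes some were called higher and some lower over 20 libraries. Myrf, the factor that starts myelin gene transcription, stood at 0.10 (SE 0.32), 0.15 (SE 0.32) and 0.15 (SE 0.32) over 24 libraries and rose by 0.82, 0.92 and 0.85 (SE 0.25 to 0.26) over 20. Olig1 and Olig2, factors of the whole lineage, were not called in either set, as with Sox10, at log2 fold changes between -0.32 and 0.16. Over 24 libraries 2, 0 and 3 of 11 transcription factors were called lower and 0 higher, and over 20 libraries 2 were higher in each and 2, 0 and 3 lower. Of all genes 16.5%, 12.8% and 21% were called lower over 24 libraries and 22%, 20% and 24.2% over 20, so the counts of transcription factors called lower lie near the share of all genes. Among 12 genes of myelin lipid synthesis 3, 1 and 4 were lower over 24 libraries and 0 higher. Those were genes with wide use outside myelin, such as Hmgcs1, an enzyme of cholesterol synthesis, at -0.22 (SE 0.07), -0.10 (SE 0.07) and -0.34 (SE 0.07), and Fads2, a fatty acid desaturase, at -0.34, -0.36 and -0.41 (SE 0.09 each). Over 20 libraries 5 of the 12 were higher in each comparison and 3, 2 and 3 lower. Among 11 genes of the inner, outer and paranodal membrane 1, 1 and 2 were higher and 1, 0 and 1 lower over 24 libraries, and 4, 6 and 6 higher and 1, 1 and 2 lower over 20. Most counts over 24 libraries in these lists lie near the shares of all genes.

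Genes of oligodendrocyte precursors that passed the test were all lower against dark, the direction opposite to that of most mature genes over 20 libraries. Of 12 genes, 4, 5 and 6 were called lower in light, psilocybin-dark and psilocybin-light against dark and 0 higher over 24 libraries, beside 16.5%, 12.8% and 21% of all genes called lower, and 9, 8 and 10 were lower over 20 libraries, beside 22%, 20% and 24.2%. Ptprz1, a receptor phosphatase of precursors and astrocytes, fell by 0.67, 0.55 and 0.71 on the log2 scale (SE 0.08 each), and C1ql1, a secreted protein of precursors, fell by 0.51, 0.83 and 0.68 (SE 0.16 each). Cacng4, an AMPA receptor auxiliary subunit, fell by 0.44, 0.44 and 0.69 (SE 0.10 each). Pdgfra, the growth factor receptor that defines precursors, was at -0.26, -0.11 and -0.27 (SE 0.13 each) without a call over 24 libraries and fell by 0.45, 0.29 and 0.45 (SE 0.10 each) over 20. Cspg4, the NG2 proteoglycan, fell in psilocybin-light mice over 24 libraries by 0.35 (SE 0.13) and in all 3 comparisons over 20.

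The summed level of the 12 precursor genes was 10580.2 to 12593 in the dark mice and 7424 to 9644 in the other 18, so these groups did not overlap, whichever of the 4 libraries were counted. How often sums of other genes set the dark mice apart in this way was not tested. Defining genes of the list, taken singly, did overlap between the dark mice and the other 18. Pdgfra ranged from 715 to 1362 in dark mice and from 805 to 1348 in the others. In the same order Cspg4 ranged from 254 to 501 and from 263 to 389, and Gpr17 from 866 to 1857 and from 810 to 1425. Olig2 ranged from 367 to 770 and from 328 to 619, so the separation belongs to the sum and not to these 4 genes singly. Dark mice 2 and 4, with the lowest summed level of the 9 genes (14292 and 15633), had the highest of the precursors (12593 and 12566). Dark mouse 1 combined the highest level of the 9 (86776) with a precursor level of 11474, inside the dark range. Several precursor genes are also made by astrocytes or neurons, and every dark mouse was higher in hippocampal neuron genes as well, whose part in these values was not tested.

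**Figure D4:**
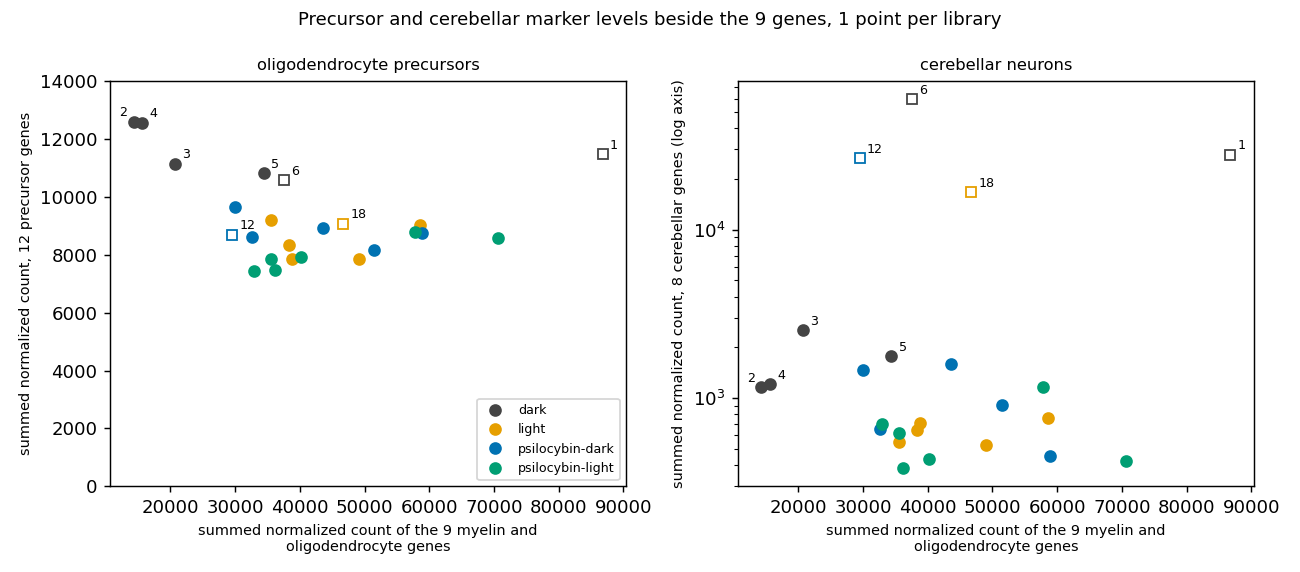
Summed normalized count of the 9 genes (horizontal axes) against that of 12 precursor genes (left, linear axis from 0) and of 8 cerebellar neuron genes (right, log axis), 1 point per mouse, coloured by group, with open squares for the 4 libraries rich in cerebellar markers. The 6 dark mice lie above all others on the left at 10580.2 or more, at very different levels of the 9 genes, and the 4 squares lie at 16668 or more on the right without a common level of the 9 genes.

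Of 12 genes of newly formed oligodendrocytes 1, 0 and 1 were higher and 3, 4 and 6 lower over 24 libraries, and 3, 3 and 3 higher and 4, 3 and 5 lower over 20. Of all genes 16.5%, 12.8% and 21% were called lower over 24 libraries and 22%, 20% and 24.2% over 20. The counts called lower lay above these shares, and the counts called higher over 20 libraries lay near those of all genes given above. Whether a list of 12 genes departs from the background in this way was not tested. Gpr17, a receptor of cells about to differentiate that is also 1 of the 12 genes of the precursor list, was at -0.24 (SE 0.13) in light mice, and fell by 0.39 (SE 0.13) in psilocybin-dark and by 0.58 (SE 0.13) in psilocybin-light mice over 24 libraries. Enpp6, an enzyme of newly formed myelinating cells, stood at 0.14, 0.32 and 0.12 (SE 0.32 each) without a call and rose by 0.85, 1.03 and 0.77 (SE 0.26 to 0.27) over 20.

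Other cell types in the tissue were compared beside these values. Over 24 libraries microglial genes were higher in 6, 1 and 5 of 10 cases in light, psilocybin-dark and psilocybin-light against dark. Astrocyte genes were lower in 2, 2 and 4 of 10 and higher in 1 each. Of all genes 15.4%, 11.9% and 17.4% were higher and 16.5%, 12.8% and 21% lower. The summed levels of microglial and astrocyte genes in dark mice were 4551 to 7202 and 75806 to 84912, a far narrower range than the 14292 to 86776 of the 9 genes. The astrocyte sum was 69135 to 84123 in light, 77914 to 90860 in psilocybin-dark and 61521 to 70286 in psilocybin-light mice, so every psilocybin-light mouse lay below every dark mouse. How often sums of other genes separate these groups was not tested either. Thalamic neuron genes were highest in dark mouse 1 (3649) and psilocybin-light mouse 23 (3600.0), against 1245 to 2773 elsewhere, and both mice were high in the 9 genes. The thalamic list holds Tcf7l2, which is also in the oligodendrocyte lists of transcription factors and of newly formed cells. The thalamic sum is therefore not free of oligodendrocyte RNA. Psilocybin-light mouse 19, the highest in Mal, had 1368 of them, and its choroid plexus genes stood at 937 against 94.4 to 322 in all other mice but light mouse 14, at 2319.6. Of 7 genes of Schwann cells, the myelinating cells of peripheral nerve, 3 passed the filter (Egr2, Cdh19 and Mlip), and Prx, a defining gene, was not among them. Of these 3, 2 were called higher in each comparison against dark over 24 libraries by edgeR and by DESeq2, and 3, 1 and 3 by edgeR over 20. Over 20 libraries edgeR called 21.1%, 18.3% and 24% of all genes higher. Their summed level was 313 to 708 in dark mice and 680 to 1392 in the others, with dark mouse 1 the lowest of all 24. Egr2, which neurons also switch on with activity, ranged from 10.1 to 155 in dark mice and from 114 to 672 in the others. The part of other tissue in the level of the 9 genes was not tested.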

How the data were processed

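RNA of 24 samples of mouse visual cortex was enriched by poly-A tail and sequenced. Per the methods and processing notes, the authors trimmed reads with cutadapt, aligned them with STAR and used HTSeq to count reads per gene. The deposited values are raw counts. The methods name GRCm39 and the processing notes mm10, and the strand setting is not given in the sources used here, so reads of a gene and of an antisense partner cannot be told apart. Gene names and positions came from GENCODE (GRCm39). Groups followed the headings of the study's count table.

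Genes were kept where some library had 30 or more counts, scaled by TMM and fitted with edgeR 4.0.16 in R 4.3.3 (quasi-likelihood test, 1 model for 24 libraries, two-sided, Benjamini-Hochberg adjustment over 14464 genes, threshold 0.05). Normalized counts refer to an effective library of 16058300 counts, and log2 levels used a prior count of 2. Exact two-sided permutation tests used scipy 1.17.1, with 924 splits of 6 against 6 and a smallest p of 0.00216. Alternatives were DESeq2 1.42.0, other scaling, filters and samples, and marker lists as covariates. In simulated data for light against dark with 14464 genes, 94 of 100 genes changed 2-fold and 75 of 100 changed 1.5-fold were recovered. The changed genes were drawn at random from those with a mean count of 30 or more, with independent noise and no outlying library. Within the dark group the SD of the 9 genes was 40.5% (Sox10) to 92.2% (Mog) of the mean. The simulated rates therefore do not give the power for the 9 genes. The 9 genes, the lists, the choice of the 4 libraries and the rule for named genes (the 9 genes, defining genes of each list, up to 4 called genes per list with the largest change, and the 5 reported genes most like the 9) were chosen with earlier results of these data known. The covariate of cerebellar genes and the lists without the 4 libraries were added after seeing the data. Of 193 listed genes 192 had a row. Some genes of the lists are not reported here.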

Additional observations from a re-analysis of the deposited data

Results flagged for a closer look

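In 5 of 36 screens of a gene within a group of 6 mice, the highest mouse was separated from the next by more of the group's range than Dixon's 95% critical value, where chance gives about 5% of such screens. All 5 were dark mouse 1. Its gap to the next dark mouse was 0.682 of the range for Mbp (47973 normalized counts), 0.677 for Mog (1511), 0.688 for Mobp (15092), 0.784 for Sox10 (935) and 0.63 for Cldn11 (3791). The screens are not independent, since these genes move together from mouse to mouse. They also depend on the scale. Log2 levels of the highest, next and lowest dark mouse were 11.54, 10.32 and 8.93 for Mbp and 5.87, 4.94 and 4.52 for Sox10. On that scale the gap above the next mouse was smaller than the rest of the range for Mbp, Mog, Mobp and Cldn11. Such a gap lies under the critical value, so only Sox10 stood apart on both scales. The same library held 27833 normalized counts of cerebellar neuron genes, 3649 of thalamic neuron genes and 32127 of glutamatergic neuron genes, whose part in these values was not tested.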

How the results depend on the processing

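Of the 9 genes, none was called in light or psilocybin-dark against dark under DESeq2, other size factors, either other filter, only the groups compared, either covariate or a threshold of 0.01, and the counts among the 3 groups other than dark stayed at 0 under the settings run, apart from the exchange of names below. Without dark mice 1 and 6 the count was 8 in light, 8 in psilocybin-dark and 8 in psilocybin-light against dark, and without all 4 libraries rich in cerebellar markers it was again 8, 8 and 8. The interaction was called lower in 2 and 3 genes, where all genes gave 11% and 13%. Exact permutation tests with p under 0.05 went from 1 of 54 to 25 and 24. Cnp in psilocybin-light against dark changed sign, to 0.65 in both exclusions. Leaving out 1 library at a time gave 0 to 7 genes called in light, 0 to 5 in psilocybin-dark and 0 to 7 in psilocybin-light against dark, the highest always without dark mouse 1.

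The single call over 24 libraries, Opalin in psilocybin-light against dark, was lost, leaving 0, with filterByExpr (adjusted p 0.0502), no filter beyond 1 count (0.0738), only the groups compared (0.132), the hippocampal list as a covariate (0.141) and a threshold of 0.01 (the edgeR value of 0.0495 unchanged). With the hippocampal covariate the median log2 fold change of the 9 genes was 0.81, 0.71 and 0.96, and with the cerebellar covariate 0.83, 0.65 and 0.96, with 0, 0 and 1 genes called. The summed hippocampal level was higher in every dark mouse than in any other mouse, so the hippocampal covariate nearly repeats each comparison against dark. A fit with it cannot tell the covariate from the group, and no conclusion is drawn from it. With the light exposure of the sample labels, psilocybin-light against dark held 0 calls, with Opalin at -0.082, and psilocybin-dark against light 1, with Opalin at 0.83. Where a call changed, the cause was not tested. Fold changes of means and of mean log2 levels also differed, as for Mobp in light against dark (0.47 and 0.84).

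No paired analysis was possible because the library numbers are unique and pair no mice across groups. Whether depth or the spread between mice limits these comparisons more was not tested, and the 9 genes had 38.9 or more normalized counts in every library.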
